A study of Mus musculus with 64 samples.

Results

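The bile acid synthesis enzymes were 10 genes, taken as the rows of the liver count table whose gene symbol was Cyp7a1, Cyp8b1, Cyp27a1, Cyp7b1, Cyp2c70, Hsd3b7, Akr1d1, Amacr, Slc27a5 or Baat. All 10 were among the 55487 genes of the table, and 9 passed the filter on low counts. Hsd3b7 did not pass and is described by its counts alone. The livers came from male C57BL/6J mice fed ad libitum, collected 4 weeks after injection of an AAV8 vector carrying an shRNA. The knockdown group received an shRNA against Acsf3, which encodes a mitochondrial acyl-CoA synthetase (sh-Acsf3), and the control group received a control shRNA (sh-Ctl), so that vector and injection were common to both. The knockdown is described as specific to the liver, and the promoter that drives the shRNA is not given in the sources used here. Each treatment was sampled at 8 zeitgeber times (ZT, hours of the light-dark day), from ZT0 to ZT21 in steps of 3 h, with 4 libraries per treatment and time and 64 in all.

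Bile acids are made from cholesterol in hepatocytes by a chain of cytochromes P450, steroid reductases and peroxisomal enzymes. Cyp7a1 starts the classical pathway and is its rate-limiting enzyme, whereas Cyp27a1 and Cyp7b1 act in the alternative pathway. Cyp8b1 directs the product to cholic acid, Cyp2c70 makes the muricholic acids of mice, and Slc27a5 and Baat couple the finished acid to coenzyme A and then to taurine. The pathway is known for a daily rhythm in liver and for feedback from bile acids on transcription of Cyp7a1 and Cyp8b1.

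Unique molecular identifiers (UMIs), which mark single captured transcripts, totalled between 1484486 and 6063636 per sh-Ctl library and between 839265 and 9350652 per sh-Acsf3 library. Levels are given as CPM (a gene's UMIs per 1000000 UMIs of the library, after TMM scaling), and since the protocol tags the 3′ end of each transcript they were not divided by gene length. Acsf3 itself measured 11.3 ± 2.61 CPM in sh-Ctl and 2.56 ± 1.72 CPM in sh-Acsf3 (mean ± SD over all libraries of a treatment, n = 32 each). The log2 difference was -2.23 ± 0.13 (SE), although the libraries ranged from 6.32 to 18.0 CPM and from 0 to 7.31 CPM and so overlapped. In 4 sh-Ctl libraries the acute-phase gene Saa1 stood above 1000 CPM (no other library passed 251 CPM), and 8 libraries, 6 of them sh-Acsf3, held exocrine pancreas transcripts above 100 CPM. Averaged differences and sh-Ctl rhythms of the enzymes and of the other genes named by symbol were also tested without either set of libraries, and calls that changed are given both ways. The labels do not say whether the 4 libraries of a group came from separate animals, so the p-values measure the spread between these samples.

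Among the 9 tested enzymes, 3 were lower in sh-Acsf3 than in sh-Ctl when the difference was averaged over the 8 times, and none was higher (edgeR quasi-likelihood test, Benjamini-Hochberg adjusted p under 0.05). Over all 10097 genes tested, 6.21% were called lower and 8.26% higher. The 3 were Cyp7b1, the oxysterol hydroxylase of the alternative pathway, Akr1d1, the reductase that sets the bent ring junction of bile acids, and Baat, the conjugating enzyme. Averaged differences of all 9 lay below 0 and ran from -0.39 to -0.05 on the log2 scale with a median of -0.11, against a median of -0.01 over all tested genes, of which 52.7% lay below 0. The sign did not hold for every enzyme under every setting: Amacr was at 0.0022 when libraries were scaled by their totals alone, Cyp7a1 was at 0.049 without replicate 1 and at 0.0013 without replicate 3, and Cyp2c70 was at 0.021 without replicate 2 and at 0.0061 without the Saa1-high libraries. No member was called when libraries were scaled by their totals alone, a scaling that also changed the split of calls over all genes from 834 higher and 627 lower to 1125 higher and 247 lower. None was called without the libraries numbered 1 or those numbered 3 either.

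**Figure D1:**
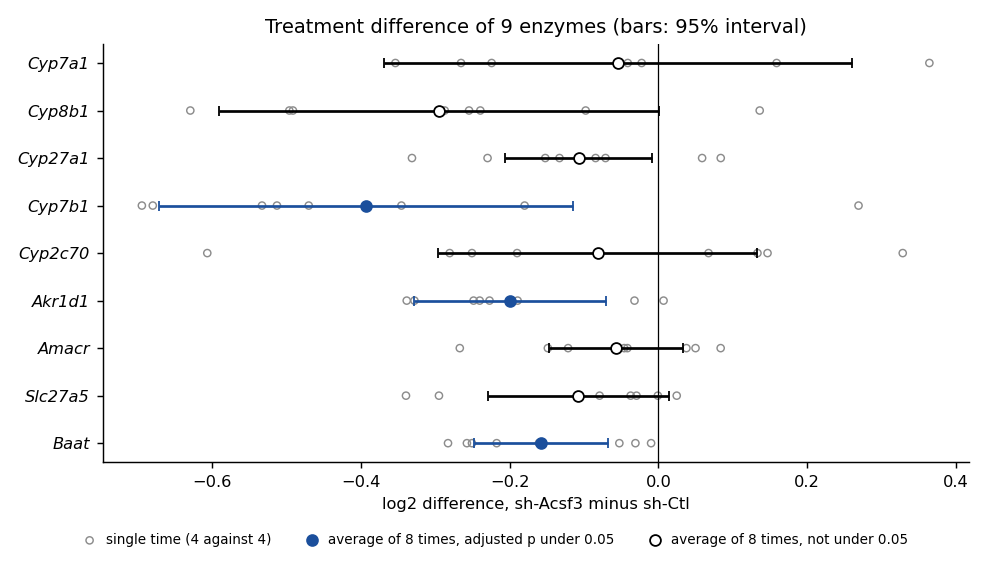
Log2 difference of sh-Acsf3 minus sh-Ctl (x axis) for the 9 tested enzymes (y axis); large circles with bars are the averages over 8 times with 95% intervals, filled where the adjusted p was under 0.05, and small open circles are the 8 single times. The 9 averages lie to the left of 0, and the intervals of Cyp27a1, Cyp7b1, Akr1d1 and Baat do not reach 0.

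Cyp7b1 had the largest difference of the 9. Its libraries ran from 250 to 897 CPM with a median of 658 in sh-Ctl and from 51.6 to 866 CPM with a median of 427 in sh-Acsf3 (n = 32 each). The ranges overlapped at each of the 8 times, and the sh-Acsf3 mean was the lower one at 7 of them, ZT0 being the exception. The means were 612 ± 183 and 461 ± 171 CPM (SD within times), a log2 difference of -0.39 ± 0.14 (SE), or 76.1% of the sh-Ctl level (95% interval of the log2 difference -0.67 to -0.115, edgeR adjusted p = 0.0464). This call stood close to the threshold: it was lost in 41 of the 64 fits that left out a single library, in which the adjusted p ranged from 0.0127 to 0.0845, and it was also lost without the Saa1-high libraries (adjusted p = 0.126) and without the libraries with pancreas transcripts (adjusted p = 0.0752). At ZT12 the 4 sh-Ctl libraries were at 620, 651, 693 and 713 CPM, and the sh-Acsf3 libraries at 51.6, 354, 465 and 782 CPM. The lowest of these was also the lowest of all 64 libraries, and the highest lay above all 4 controls.

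Baat had the smallest adjusted p of the 9. Its libraries ran from 115 to 210 CPM with a median of 166 in sh-Ctl and from 104 to 198 CPM with a median of 149.5 in sh-Acsf3, with the lower mean in sh-Acsf3 at all 8 times. The means were 164 ± 14.5 and 146 ± 21.3 CPM, a log2 difference of -0.16 ± 0.05 (SE), or 89.6% of the sh-Ctl level (adjusted p = 0.0107). At ZT3 the sh-Ctl libraries were at 173, 177, 191 and 210 CPM and the sh-Acsf3 libraries at 147, 156, 159 and 166 CPM, so the groups did not overlap. Nor did they at ZT6, where sh-Ctl stood at 164, 166, 171 and 186 CPM and sh-Acsf3 at 112, 141, 154 and 157 CPM. The call was kept in all 64 fits without a single library and without the Saa1-high libraries (adjusted p = 0.0134), and it was lost without replicate 1 (0.0609) and without replicate 3 (0.199).

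Akr1d1 ran from 91.8 to 231 CPM with a median of 141 in sh-Ctl and from 79.4 to 198 CPM with a median of 118 in sh-Acsf3. The groups overlapped at each time, and the sh-Acsf3 mean was below the sh-Ctl mean at 7 times, while at ZT15 both stood at 119 CPM. The log2 difference was -0.20 ± 0.06 (SE), or 87.1% of the sh-Ctl level (adjusted p = 0.0267). It was not called without the Saa1-high libraries (log2 difference -0.13, adjusted p = 0.157), or without 1 of these alone, the sh-Ctl ZT15 replicate 2 library (adjusted p = 0.0512). Without replicate 2 of all groups, which holds 3 of those 4 libraries, the log2 difference was -0.07 (adjusted p = 0.523).

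The other 6 tested enzymes did not pass. Cyp8b1 measured 207 ± 57.5 CPM in sh-Ctl and 173 ± 68.6 CPM in sh-Acsf3, a log2 difference of -0.29 ± 0.15 (SE; adjusted p = 0.186), and 81.5% of the sh-Ctl level. It was lower at 7 of 8 times, and it passed in the fit without replicate 4 (log2 difference -0.51, adjusted p = 0.0301). Cyp27a1, the mitochondrial sterol hydroxylase, measured 215 ± 25.4 and 200 ± 29.9 CPM, with a log2 difference of -0.11 ± 0.05 (adjusted p = 0.141). Slc27a5 measured 705 ± 122 and 656 ± 109 CPM, with a difference of the same size, -0.11 ± 0.06 (adjusted p = 0.258). Cyp2c70, the most abundant of the 10, measured 976 ± 263 and 928 ± 300 CPM and was higher in sh-Acsf3 at 4 times and lower at 4 (log2 difference -0.08 ± 0.11, adjusted p = 0.701). Amacr, the racemase that prepares the side chain for shortening in peroxisomes, measured 144 ± 19.0 and 138 ± 14.4 CPM (log2 difference -0.06 ± 0.05, adjusted p = 0.459). Cyp7a1 measured 106 ± 34.7 and 102 ± 47.6 CPM, with a log2 difference of -0.05 ± 0.16 (adjusted p = 0.887). Its 95% interval, from -0.37 to 0.26, covers both a lower and a higher level of Cyp7a1.

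At single times none of the 9 enzymes passed, where the share of all genes called was 0.515% at ZT0, 0.0693% at ZT3, 0.218% at ZT6, 0.357% at ZT9, 1.4% at ZT12, 0.0297% at ZT15, 0.168% at ZT18 and 0.317% at ZT21. An unadjusted p under 0.05 was reached by 1 of the 9 at each of 4 times, Baat at ZT3 and ZT6, Cyp27a1 at ZT9 and Amacr at ZT12, where 6.30%, 7.07%, 8.84% and 13.2% of all genes reached it, and by none at the other 4 times (5.35% to 11.6% of all genes). DESeq2 and limma-voom called no member at any time. Without the filter on low counts edgeR called 5 member-by-time differences, all lower in sh-Acsf3, for Cyp8b1 at ZT0 and ZT12, Cyp7b1 at ZT9 and ZT12 and Cyp2c70 at ZT12 (adjusted p from 0.00039 to 0.0475). That setting, with 23436 genes tested, also called more single-time differences over all genes than the main fit, as given in the last section. The largest single difference in the 9 was that of Cyp7b1 at ZT12, -0.69 ± 0.39 (SE), followed by Cyp7b1 at ZT9, -0.68 ± 0.39, and Cyp8b1 at ZT0, -0.63 ± 0.41. Cyp2c70 did not overlap between the treatments at ZT12, with sh-Ctl libraries at 880, 1024, 1038 and 1065 CPM and sh-Acsf3 libraries at 407, 723, 743 and 760 CPM. In all, 3 of the 72 member-by-time pairs (4.17%) did not overlap, the other 2 being those of Baat, against 4.94% of such pairs over all tested genes. No member was called in the edgeR test for a treatment difference that varied with time (share of all genes called 0%, smallest unadjusted p among members 0.436). In that test 306 of all genes (3.03%), none of them a member, had an unadjusted p under 0.05, and DESeq2 and limma-voom called none of all genes. Without the filter, Cyp7b1 (edgeR adjusted p = 0.012) and Cyp2c70 (0.024) passed it, as did other genes among the 23436 then tested.

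Cyp7a1 and Cyp8b1 had the widest daily swings of the 9 tested members and peaked at different times. Cyp7a1 was lowest at ZT3 and highest at ZT15 in both treatments. In sh-Ctl its libraries rose from 19.8, 32.2, 62.4 and 75.3 CPM at ZT3 to 114, 157, 163 and 209 CPM at ZT15, with no overlap. In sh-Acsf3 they rose from 21.8, 37.4, 50.2 and 53.3 CPM to 135, 150, 158 and 176 CPM, again with no overlap. Here and below, the highest and lowest times of an enzyme were picked by the means of these same libraries. A lack of overlap between these times is therefore partly built in. A cosine with a 24 h period, fitted to log2 CPM, put the peak at ZT16.7 with an amplitude (mean to peak) of 0.87 ± 0.15 (SE) in sh-Ctl, a peak-to-trough ratio of 3.35, and at ZT16.7 with an amplitude of 0.77 ± 0.18 in sh-Acsf3. Both rhythms passed (edgeR adjusted p = 0.00126 and 0.0049). The sh-Ctl amplitude of Cyp7a1 was larger than that of 99.2% of all tested genes, and that of Cyp8b1 larger than that of 98.6%.

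Cyp8b1 was highest at ZT21 in both treatments, with 270, 282, 307 and 392 CPM in sh-Ctl and 176, 299, 322 and 370 CPM in sh-Acsf3. It was lowest at ZT15 in sh-Ctl, with 80.4, 107, 122 and 145 CPM, and at ZT12 in sh-Acsf3, with 51.6, 56.3, 120.0 and 125 CPM. The highest and lowest times, picked by their means, did not overlap within either treatment. The fitted peak fell at ZT0.15 in both treatments, with amplitudes of 0.71 ± 0.12 (SE) in sh-Ctl and 0.64 ± 0.19 in sh-Acsf3 and peak-to-trough ratios of 2.68 and 2.44 (adjusted p = 0.00461 and 0.00354). The sh-Ctl rhythm of Cyp8b1 was not called without replicate 4 (adjusted p = 0.12).

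**Figure D2:**
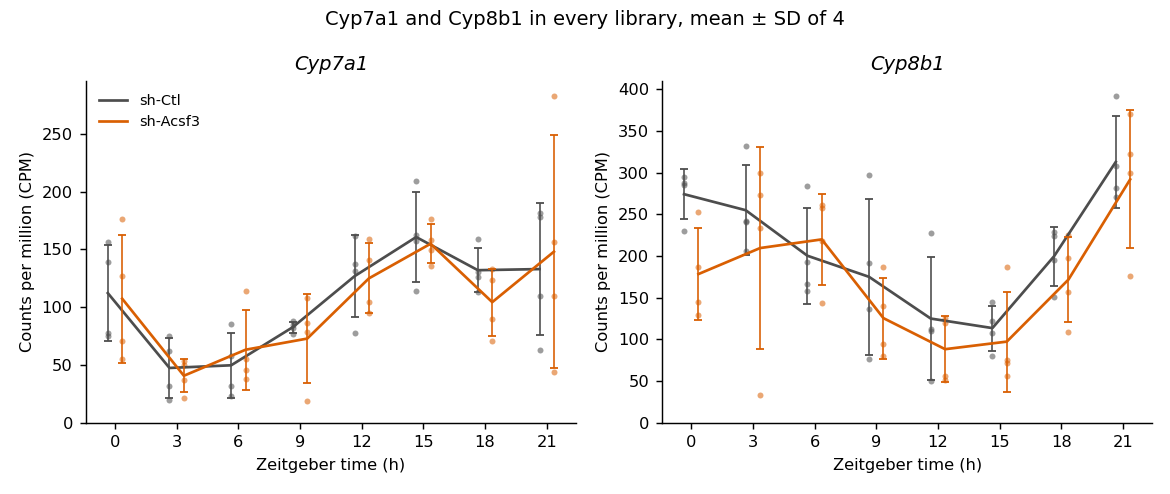
CPM of Cyp7a1 (left) and Cyp8b1 (right) against zeitgeber time in hours; points are single libraries, lines join the means of 4 libraries and bars are their SD, with sh-Ctl in grey and sh-Acsf3 in orange. Cyp7a1 is low at ZT3 and high at ZT15, Cyp8b1 is low at ZT12 and ZT15 and high at ZT21, and the libraries of both treatments overlap at each time.

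The balance of the pair within single libraries was followed as the log2 ratio of Cyp8b1 to Cyp7a1. In sh-Ctl the mean ratio was 2.57 ± 0.89 (SD, n = 4) at ZT3, a 5.94-fold excess of Cyp8b1, and -0.50 ± 0.65 at ZT15, where 1 of 4 libraries had more Cyp8b1 than Cyp7a1. In sh-Acsf3 it was 2.02 ± 1.00 at ZT3 and -0.83 ± 0.66 at ZT15, again with 1 of 4 libraries above 0. Averaged over the 8 times, the ratio differed between treatments by -0.25 (two-sided permutation test within times with 100000 resamples, p = 0.182, 32 libraries per treatment). The ratio of Cyp7b1 to Cyp7a1, the alternative against the classical pathway, differed by -0.35 (same permutation test, p = 0.156, adjusted over the 2 ratios 0.182). Neither difference passed in this test, which exchanges treatment labels within times.

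**Figure D3:**
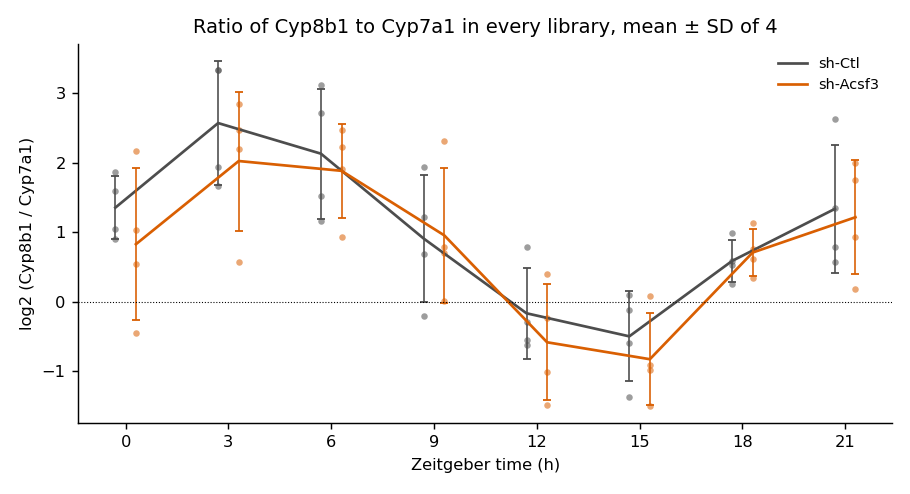
Log2 ratio of Cyp8b1 to Cyp7a1 in each library against zeitgeber time in hours; points are libraries, lines join means of 4 and bars are their SD, with sh-Ctl in grey and sh-Acsf3 in orange, and the dotted line marks equal levels. The mean ratio falls from 2.57 at ZT3 to -0.50 at ZT15 in sh-Ctl and from 2.02 to -0.83 in sh-Acsf3.

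Upstream sequence from RefSeq (assembly GRCm38.p6) was given for 5 of the 10 members, Cyp8b1, Cyp2c70, Akr1d1, Cyp27a1 and Hsd3b7, and not for Cyp7a1, Cyp7b1, Amacr, Slc27a5 and Baat. Cyp8b1 (its single exon at chromosome 9, 121914356 to 121916305, minus strand) is shown because it had the widest rhythm after Cyp7a1, Cyp2c70 (chromosome 19, 40153353 to 40187333, minus strand) because it shares a motif with Cyp8b1, and Akr1d1 (chromosome 6, 37530173 to 37568815, plus strand) because it was both rhythmic and lower in sh-Acsf3. Each run is the gene's own strand, 5′ to 3′, and ends just before the gene's start in GENCODE, which left 47 bases off Cyp2c70. The runs lie at chr9:121916306-121916555, chr19:40187334-40187536 and chr6:37529923-37530172, and capitals mark motif matches.
Cyp8b1: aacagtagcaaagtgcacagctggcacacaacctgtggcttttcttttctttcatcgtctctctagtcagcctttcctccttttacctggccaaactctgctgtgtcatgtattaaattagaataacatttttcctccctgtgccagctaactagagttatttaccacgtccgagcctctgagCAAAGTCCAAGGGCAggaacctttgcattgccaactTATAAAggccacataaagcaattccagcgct
Cyp2c70: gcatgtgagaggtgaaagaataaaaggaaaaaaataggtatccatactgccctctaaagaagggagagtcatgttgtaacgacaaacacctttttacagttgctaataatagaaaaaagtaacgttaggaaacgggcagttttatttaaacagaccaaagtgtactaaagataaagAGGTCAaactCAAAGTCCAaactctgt
Akr1d1: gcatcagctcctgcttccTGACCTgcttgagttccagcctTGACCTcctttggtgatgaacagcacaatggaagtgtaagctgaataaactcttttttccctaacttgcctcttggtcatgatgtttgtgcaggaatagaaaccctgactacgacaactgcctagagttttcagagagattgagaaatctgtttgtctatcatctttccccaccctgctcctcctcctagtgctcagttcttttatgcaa
In Cyp8b1 the capitals are CAAAGTCCA, the binding motif of Hnf4a, from 67 to 59 bases before the RefSeq start, overlapping by 2 bases with CAAGGNCA, the motif of Nr5a2 (LRH-1), from 60 to 53 bases, and then the TATA box TATAAA. In Cyp2c70 they are AGGTCA, a core motif of nuclear receptors, and CAAAGTCCA from 64 to 56 bases before the RefSeq start. In Akr1d1 both runs are AGGTCA read on the opposite strand. Searched on both strands in the 250 bases before the start, CAAAGTCCA was in 0.384% of 32851 RefSeq promoters, CAAGGNCA in 5.53%, TATAAA in 12.4% and AGGTCA in 14.0%. The D-box letters TTATGTAA (0.819% of promoters) and TTACGTAA (0.113%) and the E-box CACGTG (6.02%), motifs of clock factors, had no match in the 5 windows. The motifs were chosen after the sequences had been seen, and a match describes letters, not binding.

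A 24 h rhythm was called for 5 of the 9 tested enzymes in sh-Ctl, where 19.4% of all tested genes were called, and for 5 in sh-Acsf3, where 19.6% were. Cyp7a1, Cyp8b1, Akr1d1 and Amacr were called in both treatments, Baat in sh-Ctl and Cyp2c70 in sh-Acsf3. Akr1d1 peaked late in the night, at ZT22.2 with an amplitude of 0.25 ± 0.07 (SE) in sh-Ctl and at ZT21.9 with 0.28 ± 0.06 in sh-Acsf3 (adjusted p = 0.00691 and 0.00147). Its sh-Ctl means ran from 117 ± 16.1 CPM at ZT9 to 178 ± 32.6 CPM at ZT21 (SD, n = 4). Amacr peaked at ZT8.7 with an amplitude of 0.16 ± 0.05 in sh-Ctl and at ZT7.0 with 0.23 ± 0.04 in sh-Acsf3 (adjusted p = 0.0116 and 0.000178), whereas the called peaks of the other enzymes fell between ZT16.7 and ZT1.04. At ZT9, its highest time, the sh-Ctl libraries of Amacr stood at 158, 164, 171 and 172 CPM. At ZT18, its lowest time, they stood at 107, 127, 132 and 147 CPM, without overlap.

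Baat had the smallest rhythm p of the members in sh-Ctl. It fell from 170.5, 175, 205 and 210.0 CPM at ZT0, its highest time, to 115, 123, 147 and 152 CPM at ZT12, its lowest, without overlap. The fitted peak was at ZT0.33 with an amplitude of 0.25 ± 0.03 (SE, edgeR adjusted p = 3.71e-05). In sh-Acsf3 it stood at 142, 159, 162 and 180 CPM at ZT0 and at 110.1, 128, 138 and 142 CPM at ZT12, with an amplitude of 0.12 ± 0.05 (adjusted p = 0.096, and 0.0314 without the sh-Acsf3 ZT21 replicate 3 library). Cyp2c70 had amplitudes of 0.24 ± 0.11 in sh-Ctl (adjusted p = 0.298) and 0.38 ± 0.11 in sh-Acsf3 (adjusted p = 0.0152), with peaks at ZT23.2 and ZT1.04. Its sh-Acsf3 call was lost without the libraries with pancreas transcripts (adjusted p = 0.0536) and without replicate 1 (0.18) or 3 (0.145). No difference in rhythm between treatments was called for any member. The smallest unadjusted p of that edgeR test was 0.103, for Baat, and the share of all genes called was 0%. In that test 431 of all genes (4.27%), none of them a member, had an unadjusted p under 0.05, and DESeq2 and limma-voom called no gene.

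Cyp7b1, Cyp27a1 and Slc27a5 had no called rhythm in either treatment. Cyp27a1 was the flattest, with sh-Ctl means between 198 ± 20.2 CPM at ZT15 and 228 ± 28.7 CPM at ZT18 and an amplitude of 0.03 ± 0.04 (SE), smaller than that of all but 2.34% of tested genes. Cyp7b1 had an amplitude of 0.21 ± 0.13 in sh-Ctl and 0.32 ± 0.17 in sh-Acsf3 (adjusted p = 0.678 and 0.434) and a large spread within times, 29.9% of the mean in sh-Ctl and 37.1% in sh-Acsf3. At ZT6, for example, its 4 sh-Ctl libraries ran from 250 to 825 CPM. The corresponding spread of Baat was 8.86% and 14.6%, and that of Cyp7a1 was 32.9% and 46.6%.

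**Figure D4:**
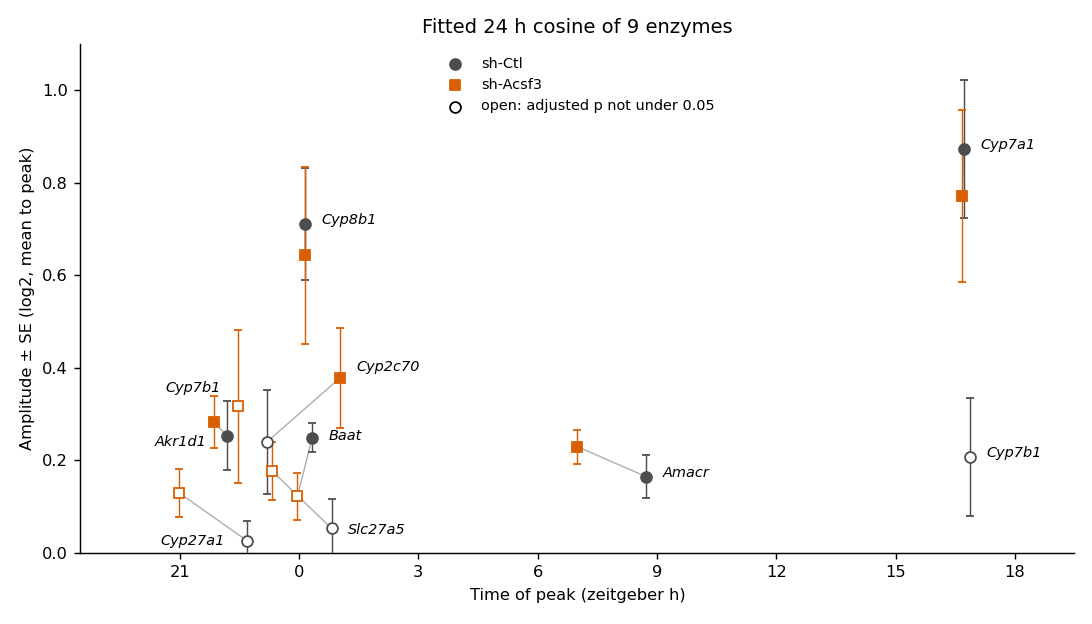
Amplitude (log2, mean to peak, with SE bars) against the time of the fitted peak in zeitgeber hours for the 9 tested enzymes; circles are sh-Ctl, squares are sh-Acsf3, open symbols did not pass, and grey lines join the 2 treatments of an enzyme except Cyp7b1. Cyp7a1 at ZT16.7 and Cyp8b1 at ZT0.15 have the highest amplitudes, and the peaks of Amacr lie at ZT8.7 and ZT7.0.

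In order of level in sh-Ctl the members were Cyp2c70, Slc27a5, Cyp7b1, Cyp27a1, Cyp8b1, Baat, Akr1d1, Amacr, Cyp7a1 and Hsd3b7. Slc27a5 and Cyp7b1, Cyp27a1 and Cyp8b1, Cyp8b1 and Baat, Baat and Akr1d1, and Akr1d1 and Amacr differed by less than the larger of their SDs within times. Hsd3b7, the dehydrogenase that follows Cyp7a1 in the pathway, had 163 UMIs over all 64 libraries. It was at 0 in 23 of them, which include every sh-Acsf3 library numbered 4, for a reason that was not tested. Its mean was 0.775 ± 0.595 CPM in sh-Ctl and 0.545 ± 0.667 CPM in sh-Acsf3 (SD within times, n = 32 each), so that a difference was not detectable at this depth. Tested without the filter, it had a log2 difference of -0.77 (edgeR adjusted p = 0.224), and its rhythm was called in sh-Acsf3 (adjusted p = 0.00945) and not in sh-Ctl (0.116). The highest means were at ZT9, with a sum of 16 UMIs for sh-Ctl and of 24 for sh-Acsf3, and at ZT21 the 4 sh-Acsf3 libraries had 0 UMIs, which allows up to 0.499 CPM (3 counts over the 4 libraries before TMM scaling, counting error only). Reads of Hsd3b7 could also come from Gm49388, which overlaps it on the same strand, and 9430064I24Rik overlaps it on the other strand, at chromosome 7, 127800604 to 127803802 (GRCm38, GENCODE M21). Whether the counting used strand is not given in the sources used here. Gm23686 lies within Cyp7b1 (chromosome 3, 18071950 to 18243338) and Gm7463 within Akr1d1, both on the strand of the enzyme.

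**Figure D5:**
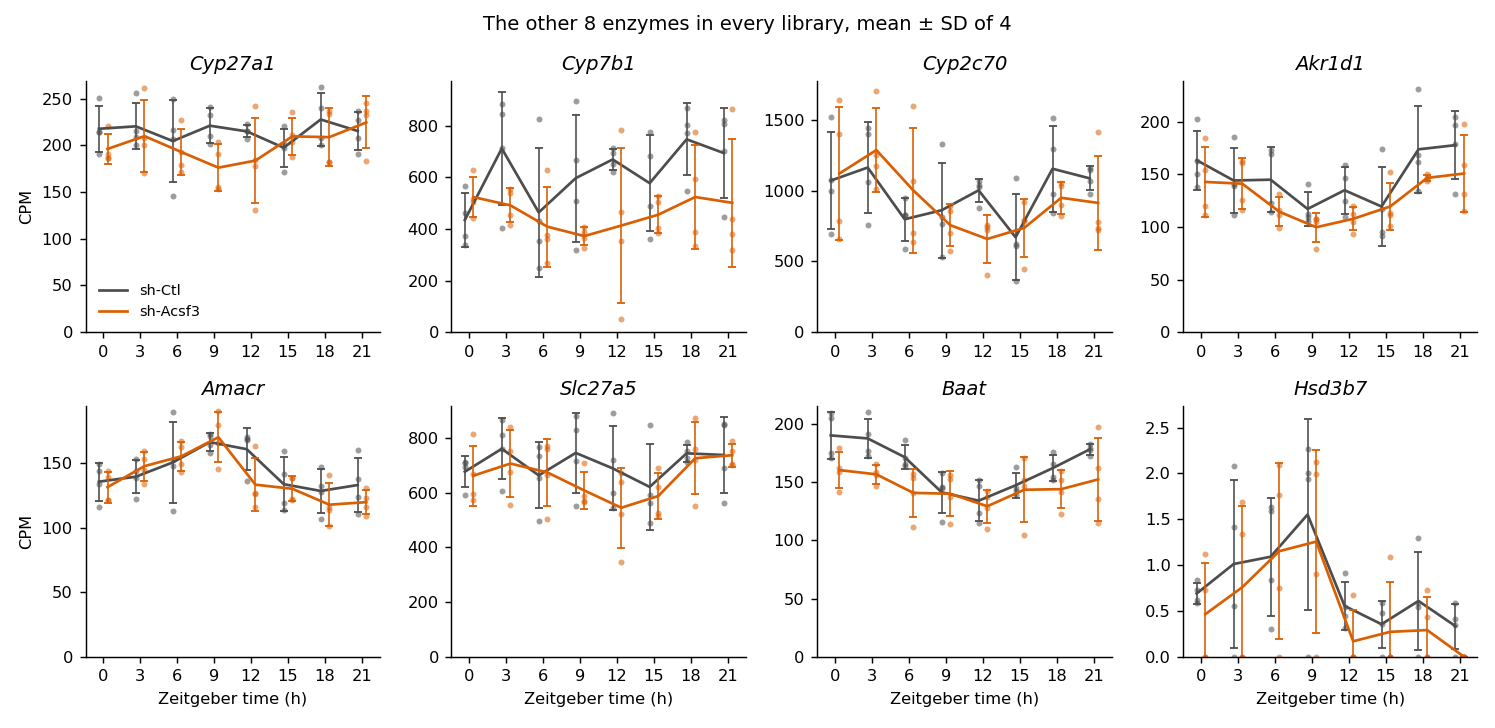
CPM of the other 8 enzymes against zeitgeber time in hours; points are single libraries, lines join means of 4 and bars are their SD, with sh-Ctl in grey and sh-Acsf3 in orange. Baat separates at ZT3 and ZT6 and Cyp2c70 at ZT12, 1 sh-Acsf3 library of Cyp7b1 lies at 51.6 CPM at ZT12, and Hsd3b7 stays at or below 2.27 CPM.

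Libraries of the same group also varied together in some enzymes. Across the 64 libraries, after subtracting each group's mean log2 CPM, 9 of 36 enzyme pairs were correlated by Pearson's r (permutation within groups, 100000 resamples, adjusted over 36 pairs), 8 of them positively, and 7 by Spearman's rho, without Cyp8b1 and Slc27a5 and without Cyp2c70 and Baat. The 9 pairs, 25% of the 36, had an absolute r of at least 0.37. Among all tested genes 4.36% of pairs reached that value, and among the 974 genes whose mean, like those of the 9 enzymes, was 100 CPM or more, 20.6% did. For Cyp27a1 and Slc27a5 Pearson's r was 0.65 and Spearman's rho 0.62 (p = 1e-05 for each, the smallest that the resamples can give, adjusted 0.00036), with r = 0.57 without the 2 farthest libraries, 0.64 within sh-Ctl and 0.65 within sh-Acsf3. Cyp7b1 and Cyp2c70 had r = 0.58 and rho = 0.61 (permutation p = 2e-05 for each, adjusted 0.00036), r = 0.60 without the 2 farthest libraries, 0.61 within sh-Ctl and 0.57 within sh-Acsf3. Cyp7a1 and Akr1d1 had r = 0.50 and rho = 0.47 (permutation p = 0.00041 and 0.00112, adjusted 0.00492 and 0.0134), r = 0.47 without the 2 farthest, 0.32 within sh-Ctl and 0.70 within sh-Acsf3. Cyp8b1 and Slc27a5 had r = 0.38 and rho = 0.34 (permutation p = 0.0107 and 0.0204, adjusted 0.0461 and 0.0815). The negative pair was Cyp2c70 and Baat, with r = -0.37 and rho = -0.36 (permutation p = 0.0115 and 0.0129, adjusted 0.0461 and 0.058). Cyp7a1 and Cyp8b1 had r = 0.25 and rho = 0.18 (permutation p = 0.0475 and 0.179, adjusted 0.132 and 0.337). Genes of a library share its depth and its total, whose part in these values was not tested.

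By the correlation of the 16 group means of log2 CPM, over 7766 candidate genes and given as a description, the genes most like Cyp7a1 were Tedc2 (r = 0.92), Pon2 (0.90) and Gm45051 (0.89). Those most like Cyp8b1 were Denn2b (0.91), Psen2 (0.90) and Paxx (0.90). Those most like Cyp7b1 were Mup7 (0.90), a major urinary protein gene, Phyh (0.90) and Cyp4v3 (0.88). Of these 9, Psen2, Mup7, Phyh and Cyp4v3 were called lower in sh-Acsf3 in the averaged test (edgeR), and without the Saa1-high libraries Psen2 was not (adjusted p = 0.143) while Tedc2 was (0.0235). Over all tested genes 6.21% were called lower. The 16 means hold both treatments, so a difference shared with the member is partly built into the choice. The largest difference of the 9 was that of Mup7, a log2 difference of -1.09 ± 0.20 (SE, adjusted p = 5.33e-05).

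Other enzymes of the pathway gave 1 higher and 2 lower calls among 10 tested. Acnat2, a peroxisomal acyltransferase related to Baat, rose from 3.99 ± 2.27 to 5.98 ± 2.76 CPM (log2 difference 0.65 ± 0.19 SE, adjusted p = 0.0126), and was not called without the libraries with pancreas transcripts (0.45, adjusted p = 0.181). Acox2, the oxidase of the bile acid side chain, was lower by a log2 difference of -0.14 ± 0.05 (adjusted p = 0.0302, and 0.0673 without the Saa1-high libraries), and Akr1c14 by -0.19 ± 0.07 (adjusted p = 0.0383). Slc27a2 did not pass (-0.11 ± 0.06, adjusted p = 0.295). Acnat2 peaked at ZT22.1, Acox2 at ZT2.24, Akr1c14 at ZT16.3 and Akr1c6 at ZT9.45 in sh-Ctl, all 4 with a called rhythm. The median difference over these 10 was -0.03.

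Of 14 regulators of the pathway, 4 were lower and 1 was higher in sh-Acsf3. Hnf4a, an activator of Cyp7a1 and Cyp8b1, fell from 283 ± 41.8 to 239 ± 31.9 CPM (log2 difference -0.23 ± 0.05 SE, adjusted p = 0.00054). Nr1h4, the bile acid receptor FXR, fell from 59.4 ± 10.8 to 51.1 ± 9.05 CPM (-0.22 ± 0.06, adjusted p = 0.00701), Klb, the co-receptor for Fgf15, by -0.28 ± 0.09 (adjusted p = 0.0314) and Mafg, a repressor of Cyp8b1, by -0.18 ± 0.06 (adjusted p = 0.0428, and 0.06 without the Saa1-high libraries). The higher one was Fgfr4, the partner of Klb, at 0.19 ± 0.07 (adjusted p = 0.0493, and 0.184 without the libraries with pancreas transcripts), which is named here for being the only rise. Nr0b2 (SHP), the repressor induced by FXR, did not pass (-0.17 ± 0.16, adjusted p = 0.549), and in sh-Ctl it was rhythmic with a peak at ZT3.63 and an amplitude of 0.60 ± 0.15 (adjusted p = 0.0263, and 0.0638 without the libraries with pancreas transcripts). In sh-Acsf3 the rhythm of Nr0b2 was not called (edgeR adjusted p = 0.125). Cyp7a1 was lowest at ZT3 in both treatments, and a link between Nr0b2 and Cyp7a1 was not tested.

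Among 12 tested transporters of bile acids and bile lipids, 5 were lower and 1 was higher. The uptake carriers Slc10a1 (NTCP; -0.28 ± 0.06, SE, adjusted p = 0.000471), Slco1a1 (-0.26 ± 0.06, adjusted p = 0.00222) and Slco1b2 (-0.25 ± 0.06, adjusted p = 0.00413) were lower on the log2 scale. Abcb4, which exports phospholipid into bile, was higher (0.27 ± 0.06, adjusted p = 0.000489). The other 2 lower calls were the sterol exporters Abcg5, which was not called without the libraries with pancreas transcripts (adjusted p = 0.0665), and Abcg8. Of 18 clock and clock output genes, 17 were rhythmic in each treatment and 1, Hlf, was lower in sh-Acsf3 (-0.25 ± 0.06, adjusted p = 0.00243), joined without the Saa1-high libraries by Nr1d2 and Tef (adjusted p = 0.0397 and 0.0463). Dbp had an amplitude of 2.64 ± 0.12 at a peak of ZT10.8 in sh-Ctl, against the 0.87 of Cyp7a1.

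Cyp7b1 is known to be higher in male than in female mouse liver. A list of 20 other genes that are male-biased or depend on growth hormone, Slco1a1 among them, gave 9 lower and 1 higher calls, the lower ones including Cyp2u1 (-0.46 ± 0.06, SE, adjusted p = 3.58e-08), Mup3 (-0.53 ± 0.08, adjusted p = 1.88e-06) and C8a (-0.31 ± 0.06, adjusted p = 3.27e-05). The higher one was Cyp4a12b (0.45 ± 0.10, SE, adjusted p = 0.00109), named here for being the only rise. This list gave 1 higher call without the Saa1-high libraries and without those with pancreas transcripts as well. Of 15 female-biased genes 2 were tested and neither passed, and Cyp2b13, Cyp3a41a and Cyp3a16 were at 0 UMIs. Of 10 hepatocyte markers 2 were lower and 8 did not pass, with a summed level of 75621 to 146088 CPM in sh-Ctl and 110625 to 154807 CPM in sh-Acsf3. Pericentral markers gave 5 higher and 1 lower calls among 10, and periportal markers 2 lower among 10. Markers of stellate cells and fibroblasts were higher for 11 of 12, and their summed level ran from 203 to 410.0 CPM in sh-Ctl and from 427 to 852 CPM in sh-Acsf3. Lymphocyte markers were higher for 7 of 7 tested (7.28 to 40.1 CPM against 22.2 to 192 CPM summed), Kupffer cell markers for 6 of 11 (121 to 476 against 150 to 480 CPM), cholangiocyte markers for 2 of 3 (29.5 to 122 against 58.7 to 139 CPM) and sinusoidal endothelial markers for 1 of 10. Exocrine pancreas and red blood cell markers gave no calls (edgeR, 0 of 11 and 0 of 5). Without the Saa1-high libraries the male-biased or growth hormone-dependent genes gave 8 lower calls, hepatocyte markers 0 and Kupffer cell markers 8 higher, and without the libraries with pancreas transcripts 7 lower, 0 and 6 higher. The part of these in the lower levels of Cyp7b1, Akr1d1 and Baat was not tested, and in whole liver fewer cells of a type and less RNA per cell cannot be told apart.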

How the data were processed

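RNA from frozen liver, extracted with Nucleozol, was profiled with the pipeline of Alpern et al., per the labels' protocols, which is the BRB-seq method of 3′ tagging with molecular identifiers. The submitters' processing notes name STAR and GRCm38 (mm10), with no version. The deposited file holds raw UMI counts per gene and library, with whole numbers and no normalization by the authors. The steps from here on were computed from these counts.

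Counts were scaled with TMM, and 10097 of 23436 genes with a UMI passed edgeR's filterByExpr (minimum count 10, minimum total 15). Quasi-likelihood tests in edgeR 4.0.16 (R 4.3.3) used all 64 libraries, with 16 group means for treatment effects and a mean, cosine and sine per treatment (24 h period) for rhythms. The Benjamini-Hochberg adjustment covered all tested genes, with a threshold of 0.05. Amplitudes, peaks and group means for likeness came from log2 CPM (prior count 2), with SEs from the delta method. Tests were checked on simulated data. Replicate copies were looked for in 96 pairs of libraries within groups, and none was found. Alternatives were DESeq2 1.42.0, limma-voom (limma 3.58.1), DESeq2 size factors, scaling by library totals, no filter, a replicate block, omission of replicates or of each library, other rhythm models and other prior counts for ratios. Omission of the Saa1-high and the pancreas-transcript libraries was added after seeing the data. The members and gene lists were chosen with earlier results of these data known. Named genes were all members, up to 4 genes per list with the smallest p of the averaged effect (and of the sh-Ctl rhythm for other enzymes, regulators and clock), and the 3 genes most like Cyp7a1, Cyp8b1 and Cyp7b1 among those with a mean of at least 5 CPM.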

Additional observations from a re-analysis of the deposited data

Results flagged for a closer look

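In groups of 4 libraries, a library was set apart where its gap to the nearest of the others took up more of the group's range than Dixon's 95% critical value. This held for 12 of 159 groups of members, 7.55%, and chance flags about 1 in 20 groups. Cyp8b1 stood low at 229 CPM in sh-Ctl ZT0 replicate 1 (others 285 to 294 CPM) and high at 187 CPM in sh-Acsf3 ZT15 replicate 4 (others 55.7 to 75.3 CPM). Cyp2c70 stood low at 407 CPM in sh-Acsf3 ZT12 replicate 1 (others 723 to 760 CPM) and high at 1412 CPM in sh-Acsf3 ZT21 replicate 3 (others 721 to 780 CPM). Slc27a5 stood low at 592 CPM in sh-Ctl ZT0 replicate 1 (others 694 to 712 CPM) and high at 709 CPM in sh-Acsf3 ZT9 replicate 4 (others 566 to 587 CPM). Cyp27a1 stood high at 221 CPM in sh-Acsf3 ZT0 replicate 1 (others 186 to 191 CPM). Akr1d1 stood low at 79.4 CPM in sh-Acsf3 ZT9 replicate 3 (others 104 to 108 CPM), and Amacr at 136 CPM in sh-Ctl ZT12 replicate 1 (others 168 to 171 CPM). Hsd3b7 was at 0 CPM in sh-Ctl ZT9 replicate 2 (others 1.94 to 2.27 CPM), and at 0.676 CPM in sh-Acsf3 ZT12 replicate 2 and 1.09 CPM in sh-Acsf3 ZT15 replicate 3, each 2 UMIs where the other libraries of the group had 0.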

How the results depend on the processing

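Of 9 tested enzymes, the number called in the averaged comparison was 3 with DESeq2, limma-voom and the replicate block. It was 2 with DESeq2 size factors and without the pancreas-transcript libraries, 1 without the Saa1-high libraries and 0 with scaling by library totals. Without the filter on low counts, where all 10 enzymes were tested, it was 4. Omitting a replicate number gave 0 to 3, and omitting a single library gave 1 to 3, with 1 (Baat) without sh-Ctl ZT15 replicate 2. Without the filter, 5 member-by-time differences passed (Cyp8b1 at ZT0 and ZT12, Cyp7b1 at ZT9 and ZT12, Cyp2c70 at ZT12) and 2 members varied with time, against 0 in every other setting run for these tests, and Cyp8b1 passed the averaged test (adjusted p = 7.63e-07). The cause was not tested. Averaged differences of single members lay below 0 in 103 of 108 alternatives. The reversals were Amacr with library totals (0.0022), Cyp7a1 without replicate 1 (0.049) and 3 (0.0013), and Cyp2c70 without replicate 2 (0.021) and without the Saa1-high libraries (0.0061), and their cause was not tested. Over omissions of a replicate number Cyp7a1 ran from -0.27 to 0.049 and Cyp2c70 from -0.18 to 0.021.

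Called rhythms in sh-Ctl numbered 3 to 5 over omissions of a replicate number, and 2 (Cyp7a1 and Baat) when any difference among times was tested in place of a cosine. In sh-Acsf3 they numbered 4 to 6, and 3 (Cyp7a1, Cyp8b1 and Amacr) with that test, which spends more degrees of freedom. Over all genes, averaged calls numbered 1461, and 787 without replicate 3. Calls at single times summed to 310 in the main fit (10097 genes tested), 1743 without the filter (23436 genes tested), 130 without replicate 1, 78 without replicate 3 and 182 without replicate 4. Genes that varied with time numbered 273 without the filter, and those that differed in rhythm 1. Rhythmic genes in sh-Ctl numbered 1160 without replicate 4 and 1271 by any difference among times, and in sh-Acsf3 1157 without replicate 2, 1140 without replicate 3 and 1319 by any difference.

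The difference in the ratio of Cyp8b1 to Cyp7a1 lay between -0.31 and -0.19, and that of Cyp7b1 to Cyp7a1 between -0.51 and -0.11, over all settings, with no adjusted p under 0.123. Replicate numbers were shared by all groups, but not every same-numbered pair of libraries deviated together: over 480 such pairs the correlation had a median of 0.03 (-0.02 for libraries of different numbers) and a minimum of -0.56, and 167 exceeded 0.1. As a hint that some deviation was shared, 32 of 64 libraries correlated best, on average, with the libraries of their own number among the 4. With the replicate block 3 members were called in the averaged comparison, 5 rhythms in each treatment and none in the other comparisons, and the differences in ratio were -0.25 and -0.35. Depth limits Hsd3b7, and the 4 libraries per group leave SEs of about 0.39 to 0.47 for single-time log2 differences of Cyp7a1, Cyp8b1 and Cyp7b1.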
